A study of Sus scrofa with 4 samples.

Results

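The 9 genes described here are the core of the Hedgehog pathway: the ligands SHH, IHH and DHH, the receptor PTCH1, the signal transducer SMO, the transcription factors GLI1, GLI2 and GLI3, and the ligand-binding inhibitor HHIP. They were chosen by gene name from tables of 29263 genes, and all 9 were found. The tables come from 4 RNA sequencing libraries of sorted pig lung cells. Every animal had the genotype LGR5-H2B-GFP knock-in. Its reporter, a histone joined to green fluorescent protein, follows transcription of LGR5, a receptor for the Wnt-amplifying R-spondins. Cells with bright fluorescence (GFP-HI, 2 biological replicates) were compared with cells without fluorescence (GFP-NEG, 2 biological replicates). Histone-bound GFP is long-lived, so the bright gate can also hold cells that transcribed LGR5 earlier. The protocol covers adult and fetal lung together, and only the name of the authors' comparison mentions adult pigs. Ages are not stated, no library from a pig without the knock-in was analysed here, and the antibody gates used for these libraries are not specified.

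Hedgehog ligands are secreted proteins. In the absence of ligand, PTCH1 holds SMO inactive, and GLI3 and GLI2 are cut into repressors at the primary cilium. Ligand binding to PTCH1 frees SMO, and full-length GLI proteins then switch on targets that include GLI1, PTCH1 and HHIP, so these transcripts serve as common readouts of the pathway. In the lung, epithelial cells are the classical source of SHH and the mesenchyme is the classical responder, during branching of the embryonic lung and in the quiescent adult organ.

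GFP-HI libraries held 24200550 and 24689986 counts and GFP-NEG libraries 6292253 and 7045652. Despite the lower depth, more genes had a count in GFP-NEG, with 24120 and 25985 genes against 18752 and 18392 in GFP-HI. The reason for this difference was not tested. LGR5 itself had 3218 and 3073 counts in the bright fraction against 10 and 7 in GFP-NEG, the order that the sort labels give. Over all 19682 genes tested, the median log2 fold change (GFP-HI over GFP-NEG) was -0.25. The 14 fibroblast markers had a summed level of 90136 and 86236 CPM in GFP-HI and 27115 and 9667 CPM in GFP-NEG, so the first GFP-NEG library had the higher fibroblast signal of that group. All 14 were detected in every library, and 11 rose in GFP-HI. Immune markers ran the other way, with 388 and 645 CPM in GFP-HI against 3802 and 4772 CPM in GFP-NEG, and 14 of 15 fell. Endothelial markers summed to 219 and 217 CPM in GFP-HI against 1427 and 591 CPM in GFP-NEG, and 8 of 10 fell. The background was 8.35% of tested genes called higher and 27.6% called lower in GFP-HI. The part of these markers in the Hedgehog values was not tested. CPM is the count divided by the library total and by a scaling factor, the trimmed mean of M-values (TMM), on edgeR's usual scale. In sorted bulk RNA, fewer cells of a type and less RNA per cell cannot be told apart. The headings of the authors' normalized columns name pig 1 and pig 2, but 2 of these 4 headings sit over another library's values. The libraries are labelled biological replicates. The p-values measure the spread between them as a trend over all genes, not the spread of each single gene. The groups also differ in depth, and 5 Hedgehog genes were likewise called after GFP-HI was thinned to the mean GFP-NEG depth.

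**Figure D1:**
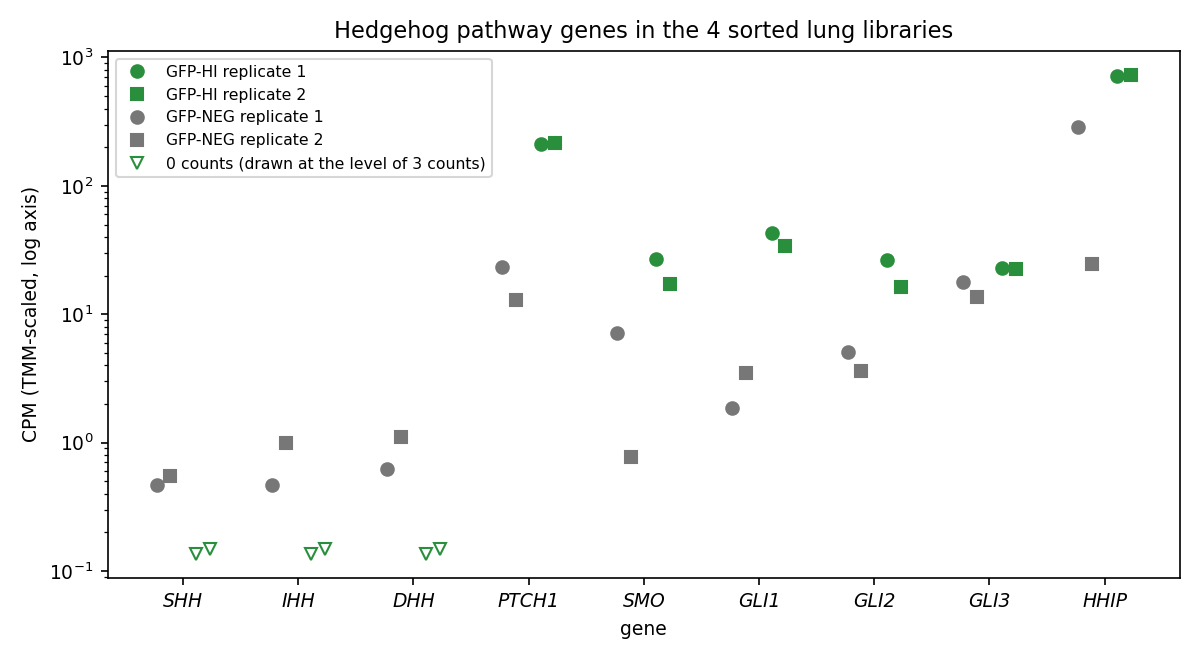
Level of each Hedgehog gene in each library, in CPM on a log axis. Green symbols are GFP-HI and grey symbols GFP-NEG (circles replicate 1, squares replicate 2), and open triangles mark libraries with 0 counts. PTCH1, SMO, GLI1, GLI2 and HHIP lie higher in both GFP-HI libraries than in either GFP-NEG library, GLI3 is 1.44-fold higher without passing the test, and the ligands are at 0 in GFP-HI.

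Genes of the receiving side of the pathway were higher in LGR5-reporter-bright cells. PTCH1, SMO, GLI1, GLI2 and HHIP all rose in GFP-HI, by 4.66-fold to 14.0-fold. GLI3 was present in both groups and did not pass the test, and the ligand genes had 0 counts in GFP-HI. So 5 of the 9 genes rose at an adjusted p under 0.05 (edgeR quasi-likelihood test, Benjamini-Hochberg over all tested genes), 1 was tested and not called, and 3 were too low to test. Over all tested genes, 8.35% were called in this direction. All 6 tested genes had both GFP-HI libraries above both GFP-NEG libraries, an order that 27.7% of tested genes shared.

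PTCH1, the ligand receptor and a direct target of the pathway, measured 211 and 215 CPM in the GFP-HI libraries and 23.4 and 12.9 CPM in the GFP-NEG libraries. The GFP-HI replicates were nearly equal and lay far above both GFP-NEG values. The means were 213 ± 2.89 CPM and 18.2 ± 7.43 CPM (SD, n = 2 each). This 11.7-fold difference corresponds to a log2 fold change of 3.55 ± 0.62 (SE) at an adjusted p of 7.1e-07. Of all tested genes, 99.5% had a lower log2 fold change. The difference held when each library was left out in turn, with log2 fold changes from 3.14 to 4.09.

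GLI1, the transcriptional activator whose own gene is switched on by Hedgehog signalling, measured 42.8 and 33.7 CPM in GFP-HI and 1.86 and 3.51 CPM in GFP-NEG. The groups did not overlap. The GFP-NEG libraries held 12 and 32 GLI1 counts in all. GLI1 had the largest fitted difference of the 6 tested Hedgehog genes, a log2 fold change of 3.81 ± 0.63 (SE), or 14.0-fold (adjusted p of 1.4e-07). It ranked above 99.7% of tested genes. Omitting any 1 library left it between 3.50 and 4.32.

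HHIP, a membrane-anchored protein that binds and sequesters ligand and is induced as negative feedback, measured 717 and 734 CPM in GFP-HI. GFP-NEG replicate 1 held 287 CPM and GFP-NEG replicate 2 held 24.6 CPM. The GFP-HI libraries matched closely, while the GFP-NEG libraries differed more from each other than GFP-NEG replicate 1 did from GFP-HI in fold terms. The log2 fold change was 2.22 ± 0.75 (SE), or 4.66-fold (adjusted p of 0.011). Its size rested on which GFP-NEG library was used. It was 4.94 without GFP-NEG replicate 1 and 1.30 (adjusted p of 0.54) without GFP-NEG replicate 2. The call was also lost without GFP-HI replicate 1 (adjusted p of 0.077) and without GFP-HI replicate 2 (adjusted p of 0.11). Within replicate numbers, log2 CPM differed by 1.32 (replicate 1) and by 4.89 (replicate 2), and the fit that pairs libraries by replicate gave 3.10.

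The summed levels of several marker lists were, like HHIP, higher in the first GFP-NEG library than in the other. The 12 smooth muscle and pericyte markers summed to 2852 CPM and 433 CPM there, against 2479 and 2862 CPM in GFP-HI. Of the 12, 2 were called higher and 4 lower in GFP-HI, beside 8.35% and 27.6% of all tested genes. Airway and ciliated markers (8 genes) summed to 956 and 268 CPM in GFP-NEG, against 385 and 636 CPM in GFP-HI. The 8 alveolar type 2 markers summed to 500 and 202 CPM, against 165 and 307 CPM, and the 6 alveolar type 1 markers to 393 and 78.4 CPM, against 282 and 254 CPM. The fibroblast, endothelial and general epithelial sums had the same order between the GFP-NEG libraries, and the immune sum had the opposite order. None of these lists had a member at 0 counts in any library, and their part in the HHIP values was not tested.

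SMO, the seven-pass membrane protein that PTCH1 restrains, measured 26.9 and 17.2 CPM in GFP-HI and 7.14 and 0.767 CPM in GFP-NEG. Both GFP-HI libraries lay above both GFP-NEG libraries, which again were far apart, with 46 counts in replicate 1 and 7 in replicate 2. The log2 fold change was 2.51 ± 0.66 (SE), or 5.70-fold (adjusted p of 7.5e-04). It was 4.88 without GFP-NEG replicate 1. The call was lost without GFP-NEG replicate 2 (log2 fold change 1.59, adjusted p of 0.24) and without GFP-HI replicate 1 (2.23, adjusted p of 0.081).

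GLI2, the main activator among the GLI factors that act before target induction, measured 26.3 and 16.3 CPM in GFP-HI and 5.12 and 3.62 CPM in GFP-NEG. The groups did not overlap, and the within-replicate differences were similar, at 2.33 and 2.13 in log2 CPM. The log2 fold change was 2.29 ± 0.65 (SE), or 4.88-fold (adjusted p of 0.0021). It missed the threshold without GFP-HI replicate 1 (2.03, adjusted p of 0.063) and without GFP-NEG replicate 2 (2.01, adjusted p of 0.11).

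GLI3, the main repressor of the family when ligand is absent, measured 22.9 and 22.6 CPM in GFP-HI and 17.9 and 13.7 CPM in GFP-NEG. Both GFP-HI values were the higher ones, but by little. The fitted log2 difference was 0.53 ± 0.56 (SE, adjusted p of 0.50), so GLI3 was not called. Its means were 22.7 ± 0.261 CPM and 15.8 ± 2.94 CPM (SD, n = 2 each), apart by more than either SD. The SE comes from a spread that was moderated fully to the trend over all genes. Scaling by library size alone brought it to 0.12.

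**Figure D2:**
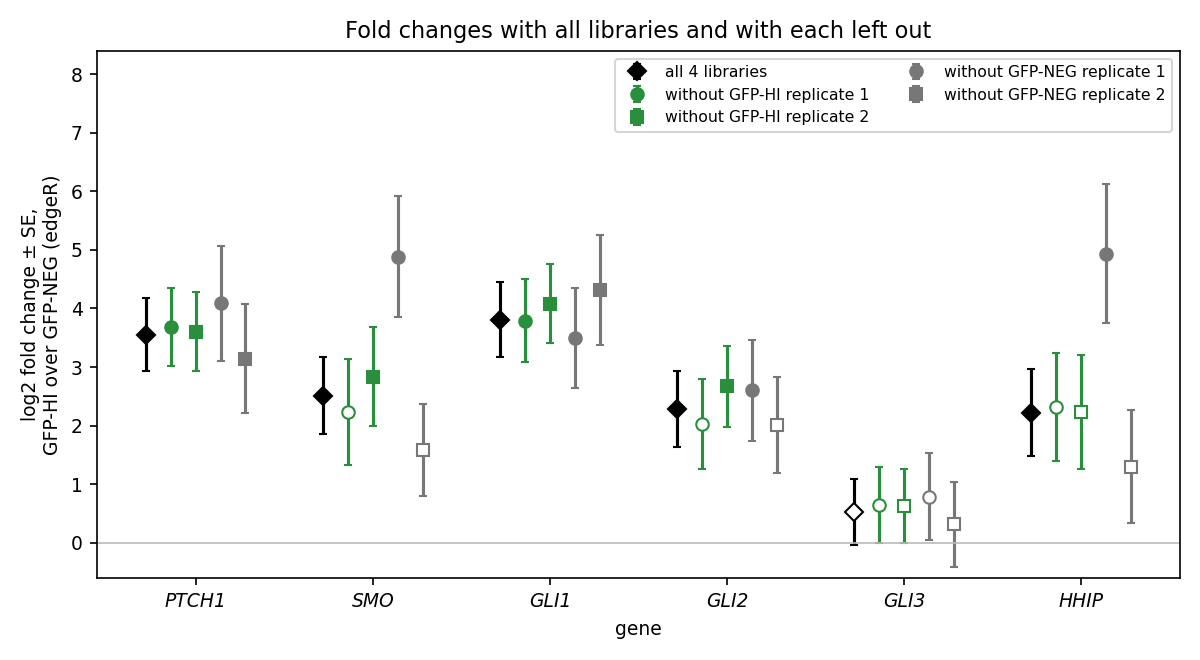
Log2 fold change (GFP-HI over GFP-NEG, edgeR, bars are SE) of the 6 tested Hedgehog genes with all 4 libraries and with each library left out. Filled symbols have an adjusted p under 0.05. PTCH1 and GLI1 stay filled in each fit, while HHIP and SMO move most when GFP-NEG replicate 1 is left out.

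When a library was left out, the other library of its group was assumed to vary like the other group. PTCH1 and GLI1 passed the threshold in all 4 such fits, and GLI3 in none. The count of called Hedgehog genes was 2 without GFP-HI replicate 1, 4 without GFP-HI replicate 2, 5 without GFP-NEG replicate 1 and 2 without GFP-NEG replicate 2. In the authors' deposited table the log2 fold changes were 3.80 for GLI1, 3.55 for PTCH1, 2.50 for SMO, 2.28 for GLI2, 2.22 for HHIP and 0.52 for GLI3. The authors' deposited table calls the first 5 of these, with adjusted p of at most 0.019, and gives 0.51 for GLI3. It calls 8.20% of its genes in this direction and does not list the ligands.

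The make-up of the GLI counts differed between the fractions. This share is taken within a library and so does not depend on scaling between libraries. GLI1 supplied 46.5% of the 2030 GLI counts in GFP-HI replicate 1 (exact Clopper-Pearson 95% interval 44.3 to 48.7) and 46.5% of 1463 in GFP-HI replicate 2 (43.9 to 49.1). In GFP-NEG it supplied 7.5% of 160 counts in replicate 1 (3.94 to 12.7) and 16.8% of 190 in replicate 2 (11.8 to 22.9). Its share was thus equal in both GFP-HI libraries and smaller in both GFP-NEG libraries.

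GLI3 showed the opposite order. It supplied 24.9% (23.1 to 26.9) and 31.1% (28.7 to 33.5) of the GLI counts in GFP-HI, and 71.9% (64.2 to 78.7) and 65.8% (58.6 to 72.5) in GFP-NEG. GLI2 varied less, with 28.6% and 22.4% in GFP-HI against 20.6% and 17.4% in GFP-NEG. For GLI1 and GLI3 the intervals of the groups did not overlap. These intervals cover counting error only. The counts are not divided by transcript length, so a share is comparable between libraries but does not rank the genes in abundance. The GFP-NEG shares rest on few counts, 12 and 32 for GLI1 and 33 and 33 for GLI2. In GFP-NEG replicate 2 these lay below the 95th percentile of odorant receptor genes (47.9 counts), which are described below. With 2 libraries against 2, an exact permutation test cannot give a p below 0.333.

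**Figure D3:**
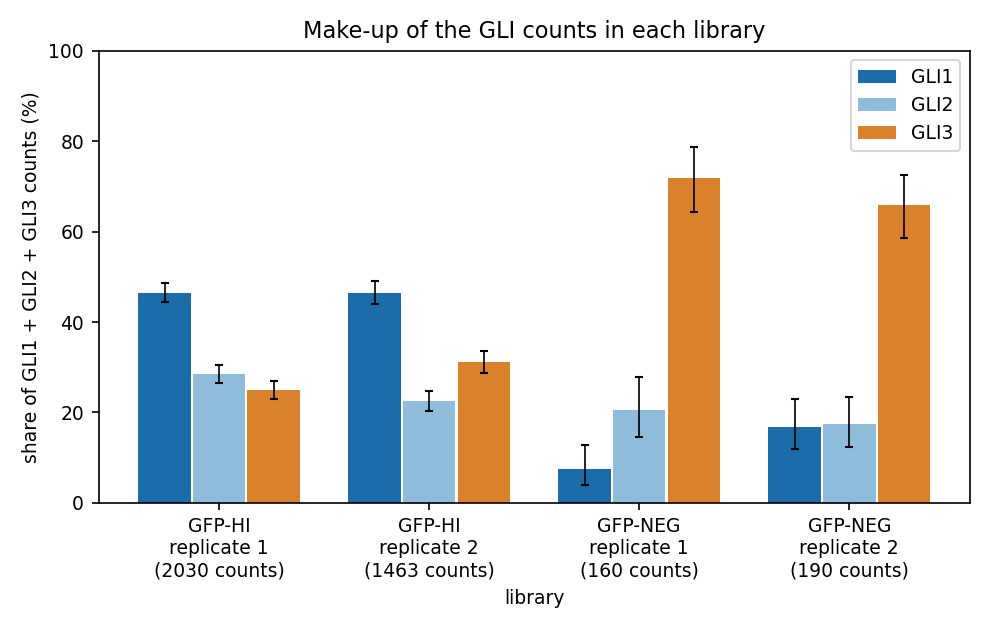
Share of each GLI gene among the summed GLI1, GLI2 and GLI3 counts of each library, in percent, with exact 95% binomial intervals that cover counting error. GLI1 takes 46.5% in both GFP-HI libraries and GLI3 takes 71.9% and 65.8% in the GFP-NEG libraries.

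Ratios to the fibroblast receptor PDGFRA, which marks much of the lung mesenchyme, placed the same counts beside this marker. PDGFRA had a log2 fold change of 3.53, close to that of PTCH1. Counts per PDGFRA count for PTCH1 were 0.256 and 0.382 in GFP-HI against 0.241 and 0.570 in GFP-NEG, so the groups overlapped. GLI1 also overlapped, with 0.0520 and 0.0599 against 0.0192 and 0.155. GLI3 was lower per PDGFRA count in GFP-HI, with 0.0279 and 0.0401 in GFP-HI against 0.184 and 0.604 in GFP-NEG. GLI2 was lower too, with 0.0320 and 0.0289 against 0.0527 and 0.159, as was SMO, with 0.0327 and 0.0306 against 0.0735 and 0.0338. The order per PDGFRA count was thus the reverse of the order in CPM for GLI2, GLI3 and SMO. The counting interval of SMO in the second GFP-NEG library (0.0134 to 0.0709) held both GFP-HI values. GLI3 had a smaller log2 fold change than every marker of the fibroblast list. For GLI2 and SMO this depended on the marker: COL14A1 and TCF21 had smaller log2 fold changes than both genes, and others, such as LUM and FBLN1, larger ones. Ratios to markers other than PDGFRA were not tested, so the reversal of GLI2 and SMO is stated for PDGFRA only. HHIP overlapped, with 0.872 and 1.31 against 2.95 and 1.08. The HHIP to PTCH1 ratio was steady in GFP-HI, at 3.40 and 3.42, and spread in GFP-NEG, at 12.2 and 1.90.

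The ligand genes had 0 counts in both GFP-HI libraries. With 24200550 and 24689986 counts, a result of 0 allows a level of up to 0.136 and 0.149 CPM in the respective libraries (3 counts each). In GFP-NEG, SHH, the principal ligand of lung epithelium, had 3 and 5 counts. IHH, best known from cartilage and gut, had 3 and 9 counts. DHH, best known from Schwann cells and gonads, had 4 and 10 counts. In every case both GFP-NEG libraries lay above both GFP-HI libraries, at 0.466 to 1.10 CPM. That order was found in 42.0% of tested genes, a set that does not hold the ligands.

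Pooled over each group and set against 3 counts in GFP-HI, the ligands were 7.24-fold (SHH), 10.9-fold (IHH) and 12.7-fold (DHH) lower in GFP-HI. These folds leave out the counting error of the few GFP-NEG counts, so they are not lower limits. None of the ligand genes passed the filter on low counts. Without that filter their adjusted p-values were 0.11, 0.068 and 0.051, and with DESeq2 they were 0.19, 0.094 and 0.062, so none was called. The pattern was common in these libraries. Of all 29263 genes, 10.9% had 0 counts in both GFP-HI libraries and at least 3 in both GFP-NEG libraries.

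Odorant receptor genes, whose known role is in the nose, were set beside the ligands. Of 102 such genes, 55 and 89 had a count in the GFP-NEG libraries, against 5 and 2 in the GFP-HI libraries. In GFP-NEG replicate 2, 52 of them had at least as many counts as SHH, 29 at least as many as IHH and 26 at least as many as DHH. In GFP-NEG replicate 1 these numbers were 25, 25 and 18. The ligand counts in GFP-NEG thus lay within the range of the odorant receptor counts. Markers of cells known to make ligand were present in both fractions. The 9 epithelial markers summed to 167 and 107 CPM in GFP-NEG and to 66.1 and 40.7 CPM in GFP-HI, and the airway and alveolar sums are given above. Schwann cell markers summed to 150 and 219 CPM in GFP-NEG and to 199 and 372 CPM in GFP-HI. Of the 7 Schwann cell markers found, 4 were at 0 in both GFP-HI libraries and 2 were at 0 in both GFP-NEG libraries.

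The rest of the pathway was read from 5 lists of 69 genes in all, of which 64 were found by name and 62 were tested. Of these, 25 rose and 2 fell in GFP-HI, beside 8.35% and 27.6% of all tested genes. The median log2 fold change was 1.18, against -0.25 over all tested genes. The count of 25 became 4 on leaving out GFP-NEG replicate 2, 14 on leaving out GFP-HI replicate 1 and 12 on leaving out GFP-HI replicate 2. Fibroblast markers had a median of 3.38, and the part of fibroblast content in the pathway lists was not tested.

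**Figure D4:**
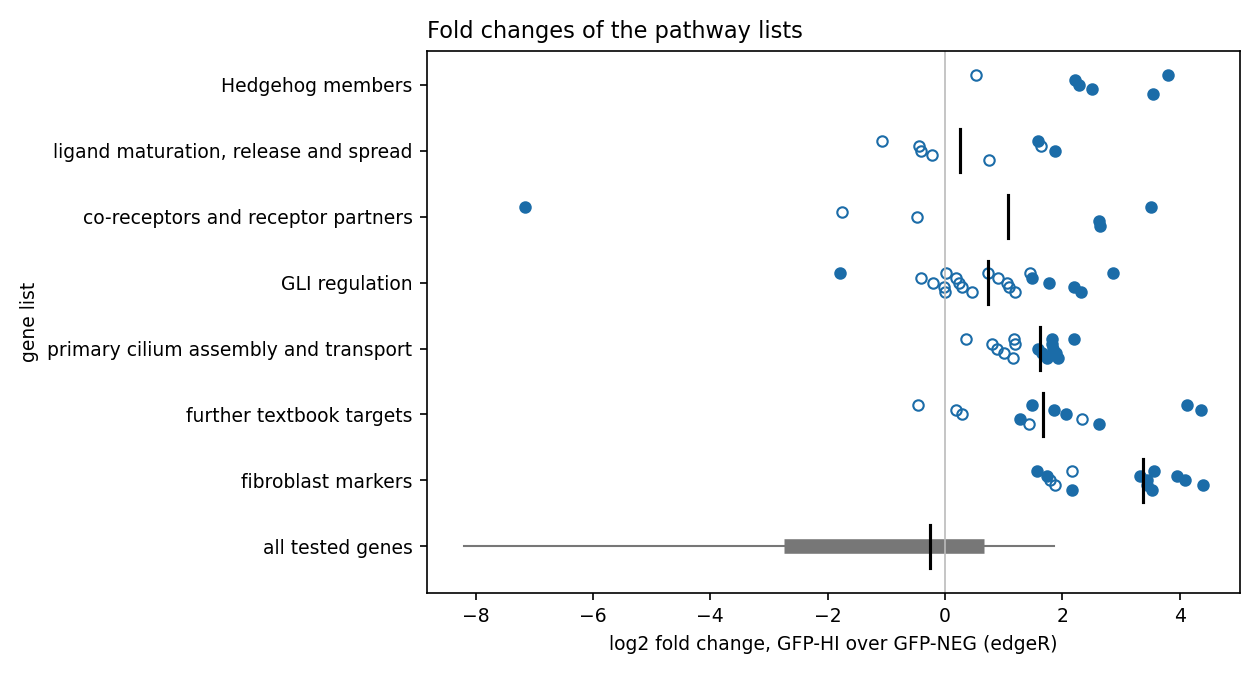
Log2 fold change (GFP-HI over GFP-NEG, edgeR) of each tested gene, by list, with filled points at an adjusted p under 0.05 and black bars at list medians (none for the Hedgehog members). For all tested genes the thick bar spans the 25th to the 75th percentile and the thin line the 5th to the 95th. All 16 cilium genes lie above 0, and the other pathway lists span both sides.

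Receptor partners split into genes that rose strongly and genes that did not. BOC, a co-receptor that presents ligand to PTCH1, measured 427 and 271 CPM in GFP-HI and 42.7 and 18.5 CPM in GFP-NEG. Its log2 fold change was 3.51 ± 0.68 (SE), or 11.4-fold (adjusted p of 6.8e-06), and it was 4.29 without GFP-NEG replicate 1. CDON, the related co-receptor, measured 15.3 and 11.01 CPM in GFP-HI and 25.6 and 10.96 CPM in GFP-NEG, and the groups overlapped (log2 fold change -0.47, adjusted p of 0.57, and 0.315 without GFP-NEG replicate 1). Within a library there were 27.9 and 24.6 BOC counts per CDON count in GFP-HI against 1.67 and 1.69 in GFP-NEG. The co-receptor ratio was therefore alike within each group and more than an order of magnitude apart between them.

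GPC3, a glypican that competes for Hedgehog ligand, reached 2518 and 1722 CPM in GFP-HI against 617 and 58.4 CPM in GFP-NEG (log2 fold change 2.65, adjusted p of 0.017). It behaved like HHIP, at 5.23 without GFP-NEG replicate 1 and 1.74 (adjusted p of 0.43) without GFP-NEG replicate 2, and lost its call without either GFP-HI library (0.076 and 0.071). GPC5, a glypican reported to favour Hedgehog signalling, had 0 counts in the GFP-HI libraries against 8 and 11 in GFP-NEG (adjusted p of 3.7e-04). Pooled and set against 3 counts in GFP-HI, it was 17.2-fold lower there, with the counting error of GFP-NEG left out. GPC5 lay within the range of the odorant receptor counts. Its call was lost without either GFP-HI library (adjusted p of 0.11 and 0.12). GAS1 was not found by name.

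Among 21 genes that act between SMO and the nucleus, 5 rose and 1 fell, beside 8.35% and 27.6% of all tested genes. SUFU, which binds GLI proteins and holds them in the cytoplasm, measured 45.4 and 26.2 CPM in GFP-HI and 5.28 and 4.604 CPM in GFP-NEG (log2 fold change 2.86, adjusted p of 4.3e-05). The call held with each library left out, at 2.55 to 3.29. RAB23, a small GTPase that restrains the pathway, was at 2.32 in log2 fold change (adjusted p of 1.7e-04, and 0.17 without GFP-NEG replicate 2). EVC and EVC2, which partner SMO at the base of the cilium, stood at 1.78 and 2.21 in log2 fold change (adjusted p of 0.019 and 0.040). Scaling by library size alone ended both of these calls (adjusted p of 0.13 and 0.21), as did leaving out any 1 library (adjusted p of 0.052 to 0.26 for EVC and 0.054 to 0.17 for EVC2). GRK2, a kinase that phosphorylates SMO and many other receptors, was the gene that fell, with 15.1 and 11.7 CPM in GFP-HI and 27.5 and 65.7 CPM in GFP-NEG (log2 fold change -1.79, adjusted p of 0.0037). GRK2 lost its call without GFP-HI replicate 1 (0.072), GFP-HI replicate 2 (0.13) or GFP-NEG replicate 2 (0.45).

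Genes of the primary cilium, the antenna in which SMO and GLI proteins are processed, were called higher in 9 of 16 cases, beside 8.35% of all tested genes. All 16 tested genes had a log2 fold change above 0 and non-overlapping groups, against 27.7% of tested genes apart in this direction. Their median was 1.62. IFT140, a transport protein of the returning cilium train, measured 88.8 and 48.1 CPM in GFP-HI and 18.0 and 11.8 CPM in GFP-NEG (log2 fold change 2.20, adjusted p of 2.9e-04). IFT57 (1.92) and the retrograde motor DYNC2H1 (1.90) followed, with adjusted p of 0.0015 and 0.0020. The calls of IFT140, IFT57 and DYNC2H1 were lost without GFP-NEG replicate 2 (adjusted p of 0.11 to 0.33), and those of IFT57 and DYNC2H1 also without GFP-HI replicate 2 (0.16 and 0.058).

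Of 14 further textbook targets found, 12 were tested, and 7 rose and 0 fell, beside 8.35% and 27.6% of all tested genes. SFRP1, a secreted Wnt inhibitor, measured 177 and 370 CPM in GFP-HI and 17.4 and 9.21 CPM in GFP-NEG (log2 fold change 4.37, adjusted p of 1.1e-08). BMP4, a growth factor of lung mesenchyme, measured 305 and 598 CPM against 38.0 and 13.8 CPM (log2 fold change 4.12, adjusted p of 6.7e-07). Both held in each fit with a library left out. FOXF1, a forkhead factor required for lung mesenchyme, measured 173 and 77.9 CPM against 48.4 and 11.7 CPM (log2 fold change 2.06, adjusted p of 0.0010). FOXF1 was at 3.47 without GFP-NEG replicate 1, and its call was lost without GFP-NEG replicate 2 (adjusted p of 0.38) or GFP-HI replicate 1 (0.12). FOXL1, another mesenchymal forkhead factor, was too low for the test, with 65 and 15 counts in the GFP-HI libraries against 0 in both GFP-NEG libraries. Pooled and set against 3 counts in GFP-NEG, it was 9.82-fold higher in GFP-HI, with the counting error of GFP-HI left out. FOXL1 was picked with these counts already known. These targets are shared with other signalling pathways.

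Of 8 genes for ligand maturation, release and spread, 2 rose, beside 8.35% of all tested genes. HHAT, which attaches palmitate to the ligands, and the glypican GPC4 had log2 fold changes of 1.59 and 1.87 (adjusted p of 0.035 and 0.013). Neither held under scaling by library size alone (adjusted p of 0.17 and 0.083) or without GFP-NEG replicate 2 (0.43 and 0.36). HHAT was also not called by DESeq2 (0.053) or without GFP-HI replicate 1 (0.16) or GFP-HI replicate 2 (0.058), and GPC4 not without GFP-HI replicate 1 (0.099).

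The genes with the most similar pattern over the 4 libraries were found by Euclidean distance between centred log2 CPM values among 12772 named genes of at least 1 CPM. Nearest to PTCH1 were FAM174B (distance 0.148), SMTNL2 (0.200) and SULF1 (0.331). Nearest to GLI1 were COL23A1 (0.369), TRH (0.384) and C1QTNF12 (0.412). ARHGAP42, MFAP4 and LAMB1 were nearest to SMO (0.164 to 0.207), and EPHB3, IFT140 and GGT7 nearest to GLI2 (0.163 to 0.191). NAALADL2, SMARCA1 and SLC47A1 were nearest to HHIP (0.162 to 0.269), and ETNK1, SUPT7L and CALR nearest to GLI3 (0.0334 to 0.0461). GLI1 had no neighbour as close as those of GLI3. In log2 fold change, GLI1 ranked above 99.7% of tested genes and GLI3 above 70.9%. Fewer genes lie near the fold change of GLI1, so the distances of the 2 genes cannot be compared as a trait of their patterns. Likeness in pattern is over 4 libraries only and was not tested.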

How the data were processed

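For each of the 4 libraries the authors deposited gene counts, as whole numbers. Per the submitters' processing notes, featureCounts of Subread 1.5.2 and DESeq2 1.37.6 were used. The aligner, genome build and strand setting are not given in the sources used here, so overlapping and antisense genes are uncertain. The authors' deposited table gives, per the file headers, log2 fold changes, a test statistic (a score), p-values and normalized values (a signal) for 16250 genes. Its counts are identical to those of the single libraries. In 2 of its 4 normalized columns the values belong to another library than the heading names, and these columns were used for nothing else.

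Of the identifiers, 844 matched the gene name table and 834 were renamed. Counts were tested with edgeR 4.0.16 (R 4.3.3): TMM scaling, filterByExpr (19682 genes kept), group as the only term and a Benjamini-Hochberg adjusted p-value under 0.05. CPM was computed from the deposited counts, and log2 CPM used a prior count of 2. The SE is the log2 fold change over the square root of F. The common dispersion was 0.239, with the genewise spread fully moderated to its trend. Intervals are exact and 95%. With depth 24200550 and 24689986 against 6292253 and 7045652, 1 count is worth 0.0453 to 0.155 CPM. Alternatives were other scalings, other filters, DESeq2 1.42.0, thinned counts, each library left out, and a replicate block.

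The headings of the normalized columns name pig 1 and pig 2, which would pair libraries of the same number by animal. The library titles number the biological replicates alike in both groups, without naming animals. Of these headings, those of GFP-NEG replicate 2 and GFP-HI replicate 1 sit over each other's values, an exchange across the groups. The exchange does not itself speak against the replicate numbers. The pairing by animal was taken as uncertain, and the block was an alternative only. Deviations of same-numbered libraries correlated with r = 0.16 across genes. The fit was first tested on simulated data. Members and lists were chosen with earlier results of these data known. Named further genes are CDON, BOC, GAS1, SUFU and, in each list, up to 4 called genes with non-overlapping groups of largest change per direction, and some genes that this rule names are not reported here. The promoter motif search was not run, as no sequence was used here.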

Additional observations from a re-analysis of the deposited data

How the results depend on the processing

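PTCH1, SMO, GLI1, GLI2 and HHIP kept their calls, and GLI3 stayed uncalled, under all 8 alternatives that used the 4 libraries. These included the replicate block, which gave 5 Hedgehog genes higher and 0 lower. The block changed no call of a named gene. Scaling mattered for the background: 1643 genes were higher in the main analysis, 888 with library size alone and 1083 with the upper quartile, and the median log2 fold change was -0.25, -0.68 and -0.58. With GFP-HI thinned to the GFP-NEG depth, 3568 genes were lower (5433 without thinning), and 1 further pathway gene was lower, against 2. Leaving out single libraries gave 2 to 5 Hedgehog genes higher, 4 to 24 further pathway genes higher and 0 to 1 lower, 216 to 1635 of all genes higher and 1575 to 4999 lower. The log2 fold change then ranged from 1.59 to 4.88 for SMO, 2.01 to 2.67 for GLI2 and 1.30 to 4.94 for HHIP. CDON ranged from -0.998 to 0.315 and changed sign without GFP-NEG replicate 1. The cause was not tested. Depth limits the ligands and the GFP-NEG values of SMO and GLI1.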
